A study of Mus musculus with 18 samples.

Results

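The comparison described here was between C2C12 cells that carried the KK-TAF3 mutant together with an shRNA against PIP4K2B (KK-TAF3 sh-PIP4K2B) and C2C12 cells that carried WT-TAF3 with the control shRNA shX (WT-TAF3 shX), both labelled as differentiated for 2 days, although the series description gives 3. It was chosen by the array titles and used 3 arrays per genotype, 6 of the 18 arrays of the series. The other arrays held WT-TAF3 sh-PIP4K2B cells, differentiated for the same time, and the 3 genotypes after etoposide, an inhibitor of topoisomerase II that breaks DNA, at 10 µM for 7 hours. C2C12 is a mouse myoblast line. All groups, WT-TAF3 shX included, were stable lines in which endogenous TAF3 had been depleted with an shRNA and replaced by an introduced murine TAF3, so no group had unmodified TAF3. The mutant and WT-TAF3 shX differed in both TAF3 and PIP4K2B, so what each contributes cannot be told apart from these 6 arrays alone, and the levels of WT-TAF3 sh-PIP4K2B cells are given beside them. The array labels of WT-TAF3 shX name no control shRNA, and its name was taken from the study's text. The 3 arrays of a group were described as biological triplicates, but nothing says that more than 1 line was made per genotype, so the p-values measure the spread between arrays of these lines.

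TAF3 is a subunit of TFIID, the complex that recruits RNA polymerase II to core promoters, and in myoblasts it also takes part in muscle gene transcription. Its PHD finger, a small zinc-binding fold, binds histone H3 trimethylated on lysine 4, the mark of active promoters, and phosphoinositides. KK-TAF3 carries changes in the polybasic stretch of that domain, keeps the histone binding and lacks the lipid binding. PIP4K2B is a kinase that phosphorylates the phosphoinositide PI5P, so that its loss lets nuclear PI5P accumulate. When serum is withdrawn, C2C12 myoblasts leave the cell cycle, switch on myogenin, build sarcomeres and fuse into myotubes.

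The targeted gene was lower in the mutant cells. Pip4k2b had a log2 signal of 9.90, 9.83 and 9.84 in KK-TAF3 sh-PIP4K2B cells, against 10.69, 10.69 and 10.68 in WT-TAF3 shX cells. The groups did not overlap, and the log2 change was -0.83 ± 0.10 (SE), or 1.78-fold lower (adjusted p = 6.09e-05). Here and below a signal is a log2 value after robust multi-array averaging (RMA), a change is KK-TAF3 sh-PIP4K2B minus WT-TAF3 shX unless other groups are named, its error is the standard error from limma, and the adjusted p is limma's after Benjamini-Hochberg adjustment over 19938 genes. WT-TAF3 sh-PIP4K2B cells had 9.46, 9.64 and 9.55. Taf3 itself read 8.59, 8.63 and 8.58 in the mutant cells, against 8.80, 8.66 and 8.86 in WT-TAF3 shX cells (change -0.17 ± 0.07, adjusted p = 0.0972). Its probes can read both the endogenous and the introduced transcript, so they do not check the rescue. Of the related kinases, Pip4k2a differed by 0.25 ± 0.07 (adjusted p = 0.033), below the fold limit, and Pip4k2c by 0.01 ± 0.07.

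With a threshold of adjusted p under 0.05 and a change above 1.4-fold, 251 genes were called, 1.26% of the genes tested. Of these, 164 were higher in KK-TAF3 sh-PIP4K2B cells (0.823% of all genes) and 87 were lower (0.436%). The median fold was 1.52 in each direction, and 26 genes were beyond 2-fold, 13 in each direction. For 250 of the 251 genes the arrays of the groups did not overlap, but this was also so for 45.8% of all genes, with the mutant arrays all above for 26% and all below for 19.9%. The smaller changes ran with brightness. Array medians were 7.27 to 7.35 in KK-TAF3 sh-PIP4K2B cells and 7.35 to 7.41 in WT-TAF3 shX cells. The median change was 0.086 among the 9969 genes above the median signal and -0.109 among those below it, and of the called genes above it 108 were higher and 29 lower. Centring each array on its median gave 383 higher and 50 lower genes, that is 88.5% higher in place of 65.3%, and with the array median as a covariate there were 88 and 81 (52.1%). Leaving out KK-TAF3 sh-PIP4K2B replicate 3 gave 196 and 185 (51.4%). The ratio of higher to lower calls therefore moved with the scaling, whereas none of the 74 called genes named by rule below changed sign under any setting tried. Snord87, named after its values were seen, was not in that check.

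**Figure D1:**
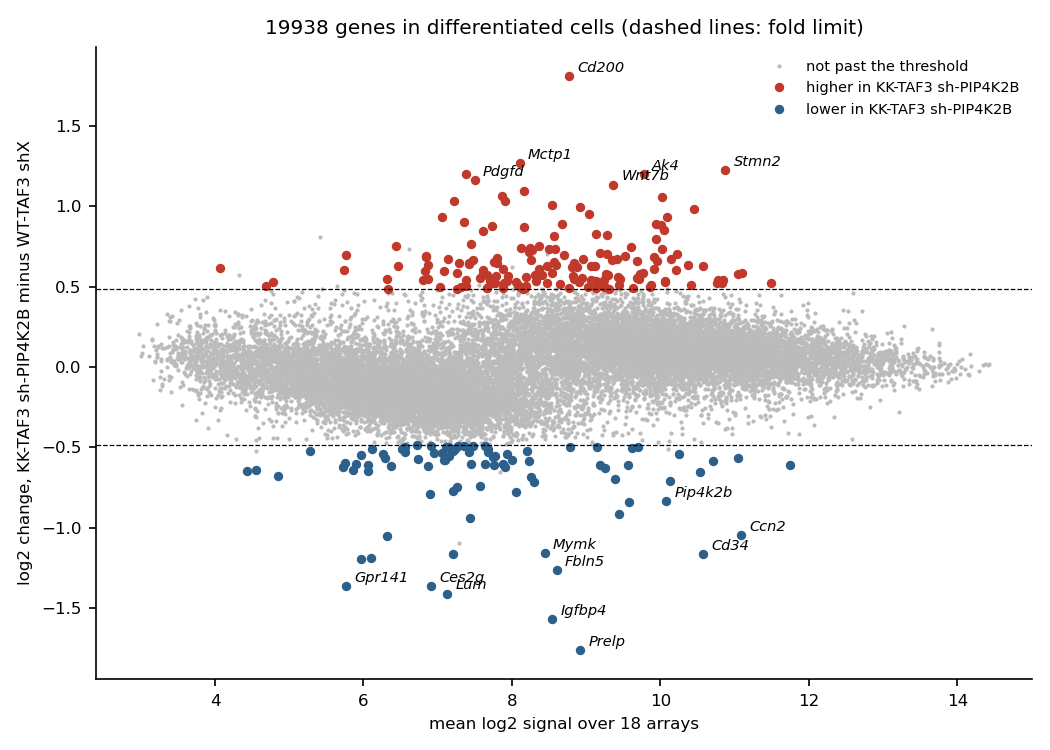
Change (KK-TAF3 sh-PIP4K2B minus WT-TAF3 shX, log2, y axis) against mean log2 signal over 18 arrays (x axis) for 19938 genes in differentiated cells. The 164 genes called higher are red, the 87 called lower are blue, and the dashed lines mark 1.4-fold. Uncalled genes of low signal lie mostly below 0 and those of higher signal mostly above it. Cd200 (1.81) and Prelp (-1.76) stand at the ends.

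Some muscle genes were lower in KK-TAF3 sh-PIP4K2B cells, among them structural genes of the early myotube and the fusion gene Mymk, and a pair of synaptic genes was higher. Of 60 measured sarcomere genes, 6 were lower and 0 higher, the other 54 not passing the threshold. Over all genes 0.436% were called lower and 0.823% higher. The median change of the sarcomere genes was -0.15, against -0.0009 over all genes. Of the 60, 35 lay at or below the median signal, where the median change of all genes was -0.109. The part of brightness in this shift was not tested. Among 35 myoblast fusion genes 2 were lower and 0 higher (median -0.01). Of 33 regulators of myogenesis, 1 was lower and 2 higher (median -0.01), and of 38 genes of excitation-contraction coupling, which link the nerve signal to calcium release, 1 was lower and 2 higher (median 0.05). None of 22 muscle metabolism genes was called (median -0.02), also at an unadjusted p with the same fold limit. In whole cultures, fewer differentiated cells and less of an RNA per cell cannot be told apart.

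Mymk encodes myomaker, a membrane protein needed for myoblast fusion. Its signal was 8.14, 8.10 and 8.06 in KK-TAF3 sh-PIP4K2B cells, against 9.18, 9.16 and 9.43 in WT-TAF3 shX cells. Every mutant array thus lay below every control array, by 2.23-fold (log2 change -1.16 ± 0.11, adjusted p = 2.48e-06). WT-TAF3 sh-PIP4K2B cells were the highest of the 3 genotypes, at 9.62, 9.63 and 9.75. Elmo1, which acts with Dock proteins on Rac during fusion, was the other fusion gene called, at 5.97, 6.01 and 6.08 against 6.67, 6.53 and 6.80 (change -0.65 ± 0.08, adjusted p = 8.35e-05).

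Myog, the transcription factor myogenin that starts terminal differentiation, gave 7.02, 6.82 and 6.94 in KK-TAF3 sh-PIP4K2B cells and 7.74, 7.64 and 7.71 in WT-TAF3 shX cells. Its change was -0.77 ± 0.09, or 1.71-fold lower (adjusted p = 5.06e-05), with 7.82, 8.07 and 7.96 in WT-TAF3 sh-PIP4K2B cells. Myod1, which acts upstream of Myog and marks committed myoblasts, did not follow it: its arrays read 8.33, 8.45 and 8.29 in the mutant cells and 8.19, 8.20 and 8.08 in WT-TAF3 shX cells, a change of 0.20 ± 0.08 that was not called (adjusted p = 0.0937). Id2, whose protein binds E proteins and keeps them off DNA, was higher, at 9.34, 9.27 and 9.36 against 8.46, 8.62 and 8.77 (change 0.70 ± 0.11, adjusted p = 0.000593). Rbfox1, a splicing factor of muscle and brain, was also higher, at 7.60, 7.73 and 7.43 against 7.12, 6.87 and 6.97 (change 0.60 ± 0.09, adjusted p = 0.000824). The regulators that passed were therefore the inducer of terminal differentiation, which was lower, and an antagonist of the E proteins and a splicing factor, which were higher.

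The 6 sarcomere genes that fell encode actins, myosin subunits, a troponin and a myosin-binding protein. Acta1, skeletal alpha-actin, had 9.71, 9.72 and 9.89 in KK-TAF3 sh-PIP4K2B cells and 10.46, 10.49 and 10.50 in WT-TAF3 shX cells (change -0.71 ± 0.10, 1.64-fold, adjusted p = 0.000433). Actc1, the cardiac actin that myoblasts make early in differentiation, had 9.01, 9.01 and 9.18 against 9.78, 9.71 and 9.82 (change -0.70 ± 0.09, adjusted p = 7.57e-05). These were the sarcomere genes with the widest gaps between the groups. Mybph (myosin-binding protein H) changed by -0.62 ± 0.10, Myh3 (embryonic myosin heavy chain) by -0.53 ± 0.09, Myl4 (embryonic myosin light chain) by -0.50 ± 0.08 and Tnnc1 (slow and cardiac troponin C) by -0.50 ± 0.10, with adjusted p between 0.00116 and 0.00822. Myl4 and Tnnc1 stood just beyond the fold limit, at 1.42-fold and 1.41-fold. Both lost the call with median centring, as did Myh3, and each lost it with at least 1 array left out. Ckm, the muscle creatine kinase, fell short of the limit at -0.35 ± 0.08 (1.28-fold, adjusted p = 0.0162), and Myl1, a fast myosin light chain, differed by 0.13 ± 0.13 (adjusted p = 0.514).

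Beside these net differences, the WT-TAF3 sh-PIP4K2B arrays gave a wider range of levels. Myh3 had 6.38, 6.25 and 6.43 in KK-TAF3 sh-PIP4K2B cells, 7.21, 7.31 and 7.35 in WT-TAF3 sh-PIP4K2B cells and 6.85, 6.99 and 6.82 in WT-TAF3 shX cells. Tnnc1 had 8.72, 8.66 and 8.67 in the mutant cells, 9.59, 9.99 and 9.81 in WT-TAF3 sh-PIP4K2B cells and 9.15, 9.15 and 9.25 in WT-TAF3 shX cells. In both genes the 3 genotypes did not overlap, with WT-TAF3 sh-PIP4K2B highest and KK-TAF3 sh-PIP4K2B lowest. The net change is by construction the sum of the change from WT-TAF3 to KK-TAF3 under sh-PIP4K2B and the change from shX to sh-PIP4K2B under WT-TAF3, and all of them share arrays. The first and the second step were -0.93 and 0.40 for Myh3, -1.11 and 0.62 for Tnnc1, -1.57 and 0.41 for Mymk, -1.02 and 0.25 for Myog, -1.18 and 0.47 for Acta1 and -0.94 and 0.44 for Myl4. Actc1 had -0.65 and -0.06, and Mybph -0.73 and 0.11, so their levels in WT-TAF3 sh-PIP4K2B cells were near those of WT-TAF3 shX cells. Myl1 had -0.81 and 0.95, steps of opposite sign and similar size, with arrays at 7.42, 7.05 and 7.04 in the mutant cells and 6.88, 6.98 and 7.24 in WT-TAF3 shX cells that overlapped.

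Genes of the neuromuscular junction and of calcium handling went both ways. Chrnd, the delta subunit of the acetylcholine receptor, was higher at 9.61, 9.64 and 9.52 in KK-TAF3 sh-PIP4K2B cells, against 9.04, 8.82 and 8.92 in WT-TAF3 shX cells (change 0.66 ± 0.09, adjusted p = 0.000114). Musk, the receptor kinase that clusters those receptors, was higher at 9.72, 9.71 and 9.60 against 8.99, 9.0 and 9.03 (change 0.67 ± 0.14, adjusted p = 0.00752), a call lost with the array median as a covariate. The levels in WT-TAF3 sh-PIP4K2B cells differed between the pair: Chrnd read 9.73, 9.80 and 9.79 there, above the mutant, while Musk read 9.11, 9.37 and 9.29, between the other genotypes. Casq2, the cardiac calsequestrin that stores calcium in the sarcoplasmic reticulum, was lower at 6.46, 6.56 and 6.54 against 6.92, 6.96 and 7.17 (change -0.49 ± 0.08, 1.4-fold, adjusted p = 0.00185) and stood at the fold limit, losing the call with median centring and with quantile normalization. Trdn, triadin of the calcium release complex, differed by 0.06 ± 0.11 at its brightest cluster, and none of its 19 clusters was called (-0.29 to 0.64). Of the 163 muscle genes measured over these 4 lists, 10 were thus called lower and 4 higher. Over all genes 0.436% were called lower and 0.823% higher.

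**Figure D2:**
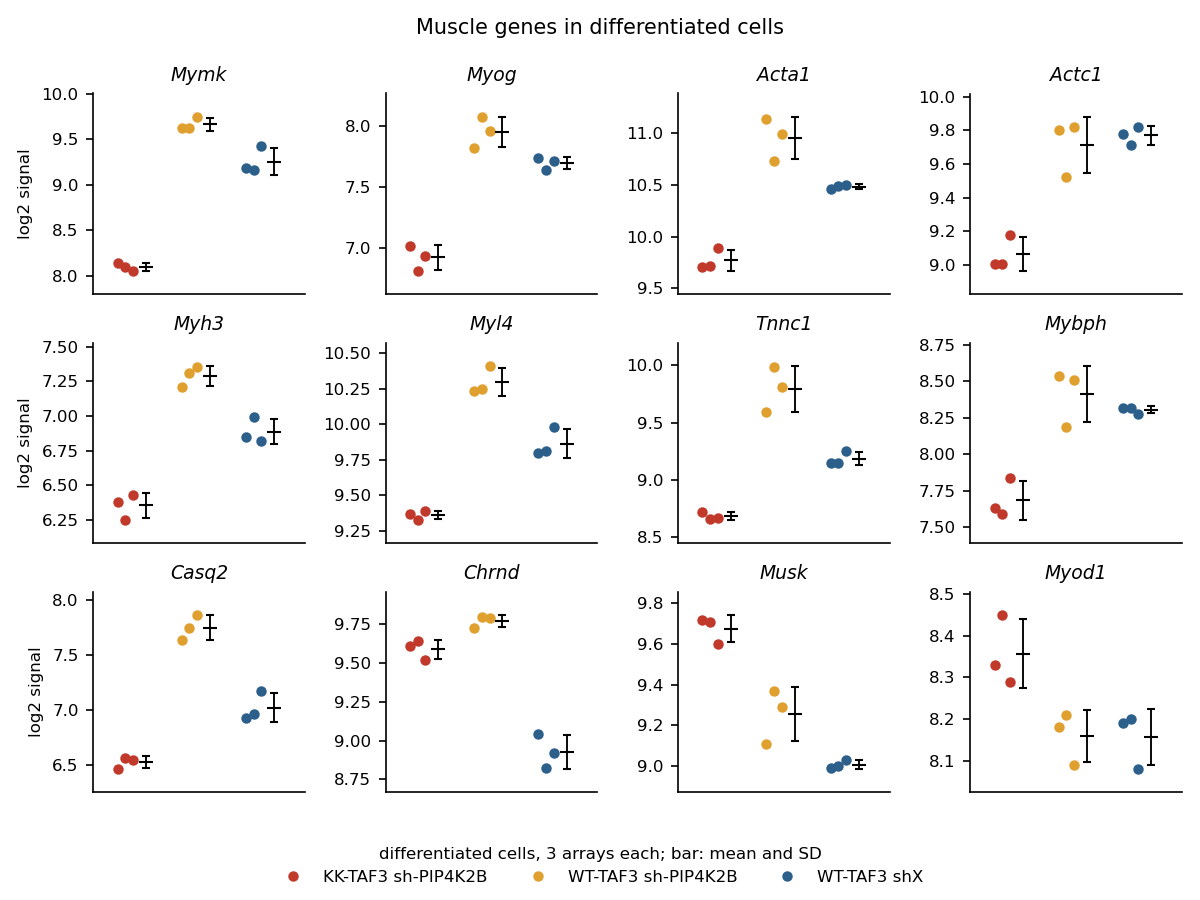
Log2 signal (y axis, a separate range per panel) of 12 muscle genes on each array of differentiated KK-TAF3 sh-PIP4K2B (red), WT-TAF3 sh-PIP4K2B (yellow) and WT-TAF3 shX (blue) cells, with the mean and SD of 3 arrays beside the points. For Mymk, Myog and Acta1 the mutant arrays lie lowest and the WT-TAF3 sh-PIP4K2B arrays highest. For Chrnd and Musk the mutant arrays lie above those of WT-TAF3 shX, and Myod1 shows no called difference.

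The upstream sequences of 5 called genes are shown because TAF3 works at core promoters and myogenin and MyoD bind E-boxes. They are the 250 bases before the RefSeq start of the gene (build GRCm38.p6), 5′ to 3′ on the gene's strand. Capitals mark CANNTG, the E-box, which reads the same on both strands, and TATAAA on either strand. No base belongs to both motifs.
Myog, chr1:134289754-134290003, plus strand: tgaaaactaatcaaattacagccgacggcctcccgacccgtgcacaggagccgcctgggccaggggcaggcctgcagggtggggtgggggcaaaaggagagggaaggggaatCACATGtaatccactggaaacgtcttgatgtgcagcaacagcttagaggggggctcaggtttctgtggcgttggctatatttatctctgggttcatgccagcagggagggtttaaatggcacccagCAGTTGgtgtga
Acta1, chr8:123894776-123895025, minus strand: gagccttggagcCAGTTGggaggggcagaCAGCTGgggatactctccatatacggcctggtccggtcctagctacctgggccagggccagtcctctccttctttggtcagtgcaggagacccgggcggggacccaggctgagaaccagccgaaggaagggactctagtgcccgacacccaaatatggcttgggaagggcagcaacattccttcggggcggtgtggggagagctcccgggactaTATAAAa
Tnnc1, chr14:31208062-31208311, plus strand: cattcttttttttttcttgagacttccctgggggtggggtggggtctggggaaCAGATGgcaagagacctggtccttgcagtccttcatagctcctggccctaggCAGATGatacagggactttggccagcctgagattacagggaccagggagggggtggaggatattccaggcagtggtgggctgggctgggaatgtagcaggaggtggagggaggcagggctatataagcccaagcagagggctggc
Musk, chr4:58285712-58285961, plus strand: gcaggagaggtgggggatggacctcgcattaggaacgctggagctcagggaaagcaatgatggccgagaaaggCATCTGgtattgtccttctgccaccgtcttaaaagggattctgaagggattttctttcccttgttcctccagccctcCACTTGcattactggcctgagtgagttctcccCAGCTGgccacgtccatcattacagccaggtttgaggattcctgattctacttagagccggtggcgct
Igfbp4, chr11:99040994-99041243, plus strand: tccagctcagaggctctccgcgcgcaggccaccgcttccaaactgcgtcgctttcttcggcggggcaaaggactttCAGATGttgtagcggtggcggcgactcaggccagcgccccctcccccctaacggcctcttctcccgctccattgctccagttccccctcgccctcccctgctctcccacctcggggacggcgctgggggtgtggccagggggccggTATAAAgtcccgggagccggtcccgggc
Myog, Acta1 and Tnnc1, all lower in the mutant, each hold 2 E-boxes, and Musk, which was higher, holds 3. Igfbp4, lower as well, holds 1 E-box and a TATAAA that begins 28 bases before its start, and the TATAAA of Acta1 begins 7 bases before the annotated start. E-boxes were common: 61.8% of the 15614 analysed genes with a sequence in the table had at least 1 in these 250 bases, and 11.2% had a TATAAA. Of the called genes with a sequence, the shares with an E-box were 55.6% of 63 lower and 60.5% of 119 higher genes, and with a TATAAA 17.5% and 14.3%. Among the muscle genes called lower, 7 of 9 had an E-box and 4 of 9 a TATAAA, against 67.5% and 21.9% of the 114 muscle genes of these lists. A match is a description of the letters and was not tested as a site.

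Of 33 proteoglycan genes 4 were lower and 1 higher in KK-TAF3 sh-PIP4K2B cells, against 0.436% and 0.823% of all genes. Their median change was -0.11, and that of all genes below the median signal, where 15 of the 33 lay, was -0.109. The 4 lower ones, Prelp, Lum, Aspn and Fmod, encode small leucine-rich proteoglycans, which bind collagen. Lum was also among the fibroblast markers, whose mean signal was lower too and is given below. Prelp, a proteoglycan that anchors basement membranes, had the most negative change of all called genes. It read 8.96, 8.68 and 8.90 in KK-TAF3 sh-PIP4K2B cells, against 10.60, 10.55 and 10.68 in WT-TAF3 shX cells (change -1.76 ± 0.10, 3.39-fold lower, adjusted p = 5.68e-09). Lum, lumican, which spaces collagen fibrils, read 8.0, 7.93 and 7.81 against 9.30, 9.22 and 9.45 (change -1.41 ± 0.09, 2.66-fold, adjusted p = 1.18e-08). Aspn, asporin, which binds collagen and TGF-beta, read 9.23, 9.29 and 9.15 against 10.14, 10.05 and 10.23 (change -0.92 ± 0.17, adjusted p = 0.00368). In each of these genes the mutant arrays lay well below the control arrays. Fmod, fibromodulin, was at the limit with -0.49 ± 0.09 (1.4-fold, adjusted p = 0.00462) and lost its call in 6 settings, among them median centring and the array median as a covariate. Dcn, decorin, the best known of this family, did not differ beyond its spread (13.42, 13.51 and 13.53 against 13.49, 13.52 and 13.54, change -0.03 ± 0.07).

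WT-TAF3 sh-PIP4K2B cells lay between the other genotypes for Prelp (9.66, 9.68 and 9.51) and for Lum (8.16, 8.29 and 8.35). For Prelp the KK-TAF3 step was -0.77 and the sh-PIP4K2B step -0.99, for Lum they were -0.35 and -1.06, and for Aspn -0.73 and -0.19. Unlike Myog and Mymk, Prelp and Lum thus had steps of the same sign. The enzyme gene of this list, Has2, which makes hyaluronan, was higher at 10.81, 10.85 and 10.76 in KK-TAF3 sh-PIP4K2B cells, against 9.79, 9.78 and 9.90 in WT-TAF3 shX cells (change 0.98 ± 0.10, adjusted p = 4.95e-06), with 10.48, 10.70 and 10.56 in WT-TAF3 sh-PIP4K2B cells.

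Of 47 collagen and matrix genes, 1 was higher and 1 lower (median -0.05, against 1.26% of all genes called). Fbln5, fibulin 5 of elastic fibres, read 8.35, 8.27 and 8.37 in the mutant cells, against 9.64, 9.57 and 9.57 in WT-TAF3 shX cells (change -1.26 ± 0.07, 2.40-fold lower, adjusted p = 2.94e-09). Col18a1, the collagen of basement membranes from which endostatin is cut, read 9.68, 9.70 and 9.66 against 9.05, 8.94 and 9.0 (change 0.68 ± 0.11, adjusted p = 0.00164). Both were tight within each genotype. Ccn2, connective tissue growth factor and a target of the coactivator YAP, was lower at 11.12, 11.07 and 11.08 against 12.14, 12.10 and 12.18 (change -1.05 ± 0.08, 2.07-fold, adjusted p = 9.76e-08) and was 1 of 23 YAP target and smooth muscle genes called. Among 30 matrix proteases and inhibitors, Adamts12, a secreted metalloprotease, was lower (-0.58 ± 0.07, adjusted p = 8.35e-05), and Pappa and the protease inhibitor Serpinb6b (0.53 ± 0.11, adjusted p = 0.00944) were higher.

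The insulin-like growth factor axis held changes at the hormone, at a binding protein and at the enzyme that cuts it. IGF1 drives myoblast growth and differentiation, IGFBP4 binds and withholds it, and pappalysin, encoded by Pappa, releases it by cutting IGFBP4. Igfbp4 read 8.06, 7.93 and 7.98 in KK-TAF3 sh-PIP4K2B cells, against 9.53, 9.54 and 9.60 in WT-TAF3 shX cells (change -1.57 ± 0.07, 2.96-fold lower, adjusted p = 3.5e-10). Pappa read 8.80, 8.74 and 8.63 against 7.77, 7.59 and 7.79 (change 1.01 ± 0.10, 2.01-fold higher, adjusted p = 3.01e-06). Igf1 read 8.56, 8.42 and 8.50 against 9.02, 9.06 and 9.15 (change -0.58 ± 0.06, 1.5-fold lower, adjusted p = 2.01e-05). The binding protein and the hormone were therefore lower on every mutant array and the enzyme higher. Igf2bp3, an RNA-binding protein of the Igf2 transcript, was the fourth gene called in this list of 21, at 0.56 ± 0.09 (adjusted p = 0.0015), and it lost the call with quantile normalization among the arrays compared. The list's median was -0.08, and of all genes 1.26% were called. In WT-TAF3 sh-PIP4K2B cells Igfbp4 (8.87, 8.96 and 8.95) and Igf1 (8.70, 8.71 and 8.76) lay between the other genotypes, while Pappa (8.68, 8.76 and 8.75) overlapped the mutant.

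Secreted growth factors of the PDGF and VEGF family and HGF were called in 1 direction. Of 29 such genes 4 were higher and 0 lower (median 0.02, against 0.823% of all genes called higher). Pdgfd, a ligand of the PDGF beta receptor, read 8.43, 8.51 and 8.31 in KK-TAF3 sh-PIP4K2B cells, against 7.20, 7.31 and 7.27 in WT-TAF3 shX cells (change 1.16 ± 0.10, 2.24-fold higher, adjusted p = 1.34e-06). It was lowest in WT-TAF3 sh-PIP4K2B cells, at 6.71, 6.98 and 6.85, so that its steps ran opposite to those of Mymk, with 1.58 for KK-TAF3 and -0.41 for sh-PIP4K2B. Pdgfb, a ligand of both PDGF receptors, read 9.75, 9.77 and 9.81 against 8.98, 9.11 and 9.0 (change 0.75 ± 0.09, adjusted p = 7.57e-05), with WT-TAF3 sh-PIP4K2B cells between at 9.54, 9.51 and 9.43. Vegfc, a growth factor of lymphatic vessels, changed by 0.68 ± 0.10 (adjusted p = 0.000496). Hgf, the ligand of the receptor Met that wakes satellite cells, changed by 0.53 ± 0.10 (adjusted p = 0.00576) and lost its call with quantile normalization and with the array median as a covariate. Of 32 receptor genes, 1 was called, Epha7, an ephrin receptor, which was lower at -0.61 ± 0.09 (adjusted p = 0.000275). Over all genes 0.436% were called lower.

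Among 43 Wnt, BMP and TGF-beta ligands and their antagonists, 1 was higher and 1 lower (median -0.18). Over all genes 0.823% were called higher and 0.436% lower. Of the 43, 29 lay at or below the median signal, where the median change of all genes was -0.109. Wnt7b, a Wnt ligand, read 9.74, 9.79 and 9.65 in the mutant cells, against 8.62, 8.62 and 8.55 in WT-TAF3 shX cells (change 1.14 ± 0.09, 2.2-fold higher, adjusted p = 4.81e-07). Dkk3, a member of the Dickkopf family of secreted proteins, read 6.90, 6.78 and 6.87 against 7.92, 8.05 and 8.08 (change -1.16 ± 0.11, 2.24-fold lower, adjusted p = 3.01e-06). Both had WT-TAF3 sh-PIP4K2B levels between the other genotypes, at 9.33, 9.41 and 9.38 for Wnt7b and 7.53, 7.56 and 7.32 for Dkk3. Il18, an inflammatory cytokine, was the single member called of 36 cytokine and chemokine genes, at 8.78, 8.99 and 8.73 against 7.87, 8.17 and 8.26 (change 0.73 ± 0.15, adjusted p = 0.00922). Il33, another member of its family, differed by -0.23 ± 0.10 (adjusted p = 0.136), and C1qtnf3, a secreted relative of adiponectin, by -0.42 ± 0.09, below the fold limit. For C1qtnf3 the arrays read 9.21, 9.12 and 9.11 in KK-TAF3 sh-PIP4K2B cells, 10.44, 10.54 and 10.51 in WT-TAF3 sh-PIP4K2B cells and 9.55, 9.62 and 9.53 in WT-TAF3 shX cells, so WT-TAF3 sh-PIP4K2B cells stood well apart from both.

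**Figure D3:**
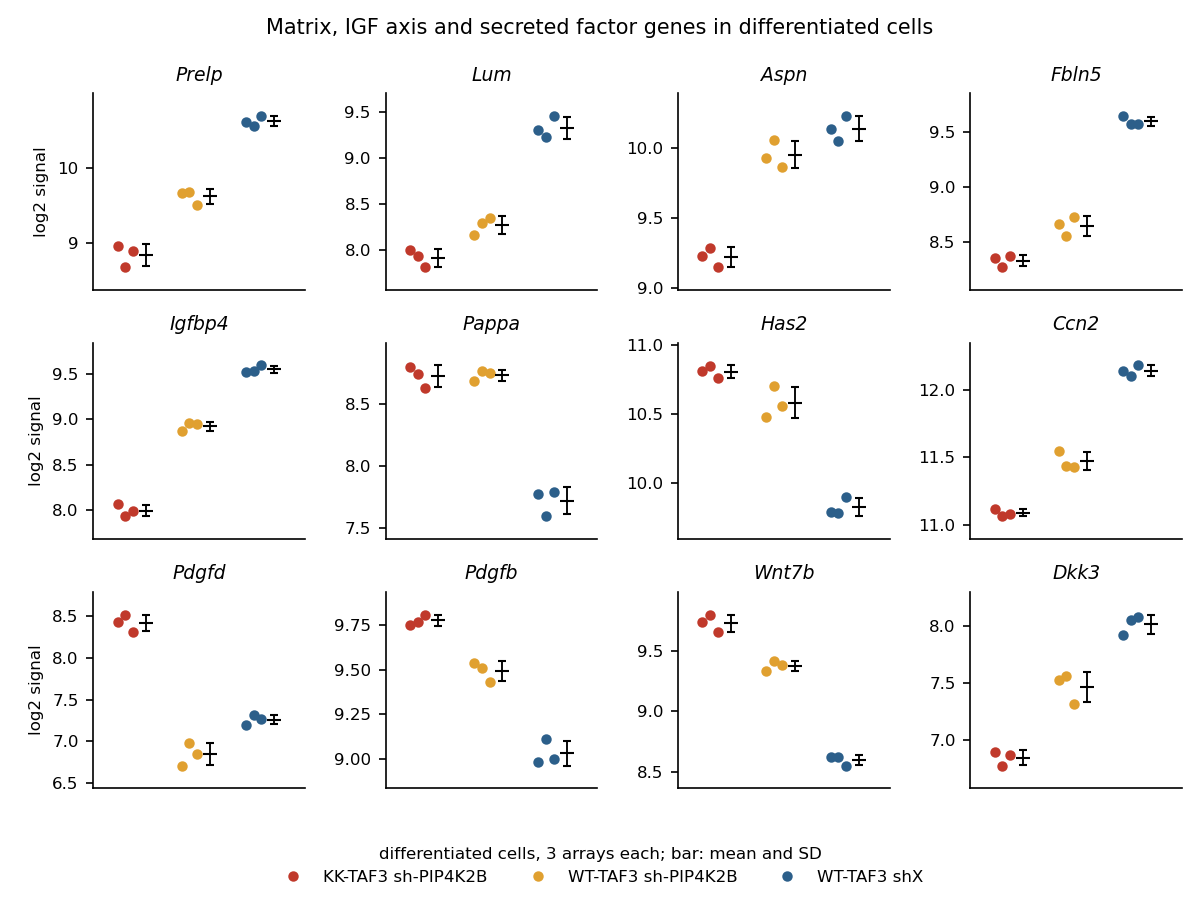
Log2 signal (y axis, a separate range per panel) of 12 matrix, IGF axis and secreted factor genes on each array of differentiated KK-TAF3 sh-PIP4K2B (red), WT-TAF3 sh-PIP4K2B (yellow) and WT-TAF3 shX (blue) cells, with the mean and SD of 3 arrays. Prelp, Lum, Fbln5, Igfbp4, Ccn2 and Dkk3 step down from right to left, Has2, Pdgfb and Wnt7b step up, and Pdgfd is highest in the mutant and lowest in WT-TAF3 sh-PIP4K2B cells.

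Of 24 antioxidant genes, many of them targets of the factor NRF2, 4 were higher and 0 lower (median 0.19, against 0.823% of all genes called higher). All but 4 of the 24 lay above the median signal, where the median change of all genes was 0.086. Nqo1, a quinone reductase, read 9.09, 9.33 and 9.32 in KK-TAF3 sh-PIP4K2B cells, against 8.43, 8.37 and 8.55 in WT-TAF3 shX cells (change 0.80 ± 0.13, adjusted p = 0.00159). Hmox1, heme oxygenase 1, read 10.14, 10.03 and 10.13 against 9.53, 9.45 and 9.53 (change 0.60 ± 0.06, adjusted p = 1.1e-05). Mgst1, a microsomal glutathione transferase, changed by 0.74 ± 0.11 (adjusted p = 0.000694), and its relative Mgst2, outside the list, by 1.10 ± 0.16 (2.14-fold, adjusted p = 0.0004). Fmo1, a flavin monooxygenase, was higher by 0.89 ± 0.09 (adjusted p = 6.47e-06) but was higher still in WT-TAF3 sh-PIP4K2B cells, with 10.19, 10.13 and 10.21 in the mutant, 11.13, 11.10 and 11.08 there and 9.17, 9.22 and 9.47 in WT-TAF3 shX cells. For Nqo1 (9.13, 9.26 and 9.19) and Hmox1 (10.00, 10.09 and 10.09) WT-TAF3 sh-PIP4K2B cells overlapped the mutant.

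Of 19 hypoxia-inducible genes 2 were higher and 0 lower (median 0.23, against 0.823% of all genes called higher). All but 4 of the 19 lay above the median signal, where the median change of all genes was 0.086. Higd1a, a mitochondrial protein, changed by 0.65 ± 0.13 (adjusted p = 0.00546), and Bnip3, which marks mitochondria for removal, read 11.56, 11.60 and 11.54 in the mutant cells, against 10.94, 10.96 and 11.05 in WT-TAF3 shX cells (change 0.59 ± 0.12, adjusted p = 0.0061). Car9, the membrane carbonic anhydrase, was 1.39-fold higher, just short of the limit (0.48 ± 0.12, adjusted p = 0.0242). Ak4, a mitochondrial adenylate kinase outside the list, read 10.46, 10.47 and 10.32 against 9.05, 9.29 and 9.31 (change 1.20 ± 0.13, 2.30-fold higher, adjusted p = 2.32e-05). Its other cluster changed by 0.34 and was not called.

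At the cell surface the largest rise of all was Cd200, an immunoglobulin-family protein that restrains myeloid cells. It read 9.75, 9.84 and 9.63 in KK-TAF3 sh-PIP4K2B cells, against 7.81, 8.04 and 7.93 in WT-TAF3 shX cells (change 1.81 ± 0.09, 3.51-fold, adjusted p = 3.5e-10). WT-TAF3 sh-PIP4K2B cells had 9.97, 10.03 and 10.07, slightly above the mutant on every array, so the sh-PIP4K2B step was 2.10 and the KK-TAF3 step -0.29 (adjusted p = 0.189). Ncam2, a neural cell adhesion molecule, had the opposite arrangement of steps. It read 5.68, 5.58 and 5.75 in the mutant, 6.72, 6.99 and 6.88 in WT-TAF3 sh-PIP4K2B cells and 6.86, 6.62 and 7.10 in WT-TAF3 shX cells (change -1.19 ± 0.12, 2.28-fold lower, adjusted p = 4.14e-06), and the arrays of both WT-TAF3 genotypes overlapped. Sema3d, a secreted semaphorin that guides axons and vessels, was higher at 9.08, 9.13 and 9.07 against 8.26, 8.19 and 8.38 (change 0.82 ± 0.13, adjusted p = 0.00115). Robo1, a Slit receptor, was higher by 0.51 ± 0.15 (adjusted p = 0.0357) and lost the call when any of the 6 arrays was left out. Of 45 genes of this list 3 were higher and 1 lower (median -0.09, against 1.26% of all genes called). Epha5, an ephrin receptor named by the study, differed by -0.20 ± 0.11 (adjusted p = 0.207).

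Cd34, a sialomucin of quiescent satellite cells and of fibroblast and blood progenitors, read 10.26, 10.29 and 10.20 in KK-TAF3 sh-PIP4K2B cells, against 11.41, 11.40 and 11.43 in WT-TAF3 shX cells (change -1.16 ± 0.07, 2.24-fold lower, adjusted p = 1.18e-08). It was the only member called among 28 quiescent reserve cell and Notch genes (median -0.04), against 0.436% of all genes called lower. WT-TAF3 sh-PIP4K2B cells were between, at 10.78, 10.70 and 10.82. Cd34 and Lum were also the 2 genes called among 9 fibroblast markers, whose median change was -0.18. The mean signal of these 9, Cd34 and Lum included, was 9.51 to 9.54 in the mutant arrays and 9.90 to 9.99 in the WT-TAF3 shX arrays. The part of this shift in the changes of other matrix genes was not tested.

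Further changes beyond or near 2-fold fell on genes of diverse function. Ces2g, a carboxylesterase, read 6.41, 6.50 and 6.50 in KK-TAF3 sh-PIP4K2B cells, against 7.90, 7.88 and 7.72 in WT-TAF3 shX cells (change -1.36 ± 0.10, adjusted p = 8.2e-08). Gpr141, an orphan receptor, had the same change with a larger error, at 5.27, 5.36 and 5.69 against 6.87, 6.53 and 7.00 (-1.36 ± 0.17, adjusted p = 6.66e-05). Lipi, a phospholipase, changed by -1.19 ± 0.09, Cpa6, a carboxypeptidase, by -1.05 ± 0.10, Olfml2a, an olfactomedin-like matrix protein, by -0.94 ± 0.10 and Etv1, an ETS transcription factor, by -0.74 ± 0.10. Lipi, Gpr141 and Ces2g, and Ncam2 above, were dim in the mutant, below the median gene signal of 7.97, where the array's floor limits how low a value can read.

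Among the rises, Mctp1, a calcium-binding membrane protein, read 9.38, 9.46 and 9.43 in the mutant cells, against 7.99, 8.21 and 8.27 in WT-TAF3 shX cells (change 1.27 ± 0.11, 2.41-fold, adjusted p = 7.67e-07). Its levels in WT-TAF3 sh-PIP4K2B cells were 7.92, 8.03 and 8.05, so they overlapped WT-TAF3 shX. Ptgfr, the receptor of prostaglandin F2-alpha, had the same arrangement, with 8.29, 8.25 and 7.96 in the mutant, 6.93, 6.98 and 7.17 in WT-TAF3 sh-PIP4K2B cells and 7.14, 7.07 and 7.19 in WT-TAF3 shX cells (change 1.03 ± 0.09, adjusted p = 9.77e-07). By contrast Stmn2, a tubulin-binding stathmin, was raised in both sh-PIP4K2B genotypes, with 10.35, 10.35 and 10.12 in the mutant, 9.90, 10.00 and 9.94 in WT-TAF3 sh-PIP4K2B cells and 8.98, 9.03 and 9.14 in WT-TAF3 shX cells (change 1.22 ± 0.09, adjusted p = 1.1e-07). Npr3, the clearance receptor of natriuretic peptides, changed by 0.99 ± 0.08 (adjusted p = 3.87e-07), of which the sh-PIP4K2B step was 0.85 and the KK-TAF3 step 0.14. Sntb1, a syntrophin of the dystrophin complex, changed by 1.06 ± 0.08, Milr1, an immunoglobulin-like receptor, by 1.07 ± 0.12, Ndrg2 by 0.95 ± 0.09, Ttc9 by 0.93 ± 0.07 and Sh2d1b1, a signalling adaptor, by 0.90 ± 0.14.

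Genes of the small proline-rich family, which form the cornified envelope of skin, included a gene with widely different levels between the genotypes. Sprr2b read 5.81, 5.79 and 5.49 in KK-TAF3 sh-PIP4K2B cells, 9.45, 9.55 and 9.46 in WT-TAF3 sh-PIP4K2B cells and 5.16, 5.59 and 5.37 in WT-TAF3 shX cells. The mutant and WT-TAF3 shX arrays overlapped, and the change of 0.32 ± 0.13 was not called (adjusted p = 0.118), while the sh-PIP4K2B step was 4.11 and the KK-TAF3 step -3.79. Both overlapping groups lay well below the median gene signal of 7.97, near the array's floor, so their overlap does not show equal levels. Sprr2e was higher by 0.60 ± 0.12 (adjusted p = 0.00672) and Sprr2h lower by a log2 change of -0.55 ± 0.10 (adjusted p = 0.00442), both at low signals, and the family's near-identical copies may share probes. Pkp2, plakophilin 2 of desmosomes, completed the called genes of this list of 32, at 0.71 ± 0.09 (adjusted p = 0.000122). Of all genes 1.26% were called.

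The cell cycle lists were quiet in this comparison. Of 39 G2 and M phase genes none was called, also at an unadjusted p with the same fold limit (median 0.10). Kif4, a mitotic kinesin, at 0.31 ± 0.10 and Cdk1, the mitotic kinase, at 0.28 ± 0.09 showed the widest changes. Of 41 DNA replication genes 1 was higher, Pole2, a subunit of DNA polymerase epsilon (0.58 ± 0.12, adjusted p = 0.00761), and of 29 p53 target genes 1 was higher, Rrm2b, a ribonucleotide reductase subunit (0.57 ± 0.08, adjusted p = 0.000474). Both lost the call with quantile normalization, and Pole2 also with the array median as a covariate. Over all genes 0.823% were called higher. Cholesterol synthesis genes had 0 of 20 called, also at an unadjusted p with the same fold limit. Every member was above 0 (0.02 to 0.47, median 0.21). Their lowest mean signal, 10.68 in the mutant arrays, was above the highest in the WT-TAF3 shX arrays, 10.49. In this list Idi1 read 10.54, 10.59 and 10.61 against 10.00, 10.15 and 10.19 (0.47 ± 0.15, adjusted p = 0.0636). After etoposide the list had 0 higher and 1 lower gene (median -0.19), and 8 of its genes passed the test of the difference between treatments with a positive sign. Over all genes 0.326% passed that test with a positive sign. All 20 genes are brighter than the median gene, and genes above the median signal shifted by 0.086 in the median.

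Components of the machinery to which TAF3 belongs were not called. Of 31 TFIID and core promoter genes none passed (median 0.14), the widest being Taf4b, a TFIID subunit of some tissues (0.43 ± 0.11), and Gtf2e1, a TFIIE subunit (0.36 ± 0.09). None of 56 PHD finger genes passed (-0.23 to 0.28), and of 58 phosphoinositide enzymes Pip4k2b was the 1 called. The interferon response had 0 of 31 called (2 lower at an unadjusted p with the same fold limit). Among them Ifit3 differed by -1.09 ± 0.42 (adjusted p = 0.103). Its arrays ran from 7.12 to 8.02 in the mutant and from 7.69 to 9.17 in WT-TAF3 shX cells, and so overlapped. None of 32 unfolded protein and amino acid stress genes, 25 integrin genes, 17 fat cell genes or 17 bone and cartilage genes passed. This was also so at an unadjusted p with the same fold limit. Of 12 housekeeping genes 1 was higher, Tfrc, the transferrin receptor (0.53 ± 0.13, adjusted p = 0.0176), which lost its call when any of 4 arrays was left out. Among 55 small nucleolar and Y RNA genes 6 were higher and 0 lower, against 0.823% of all genes called higher. Snord87 was named after its values were seen, and read 8.41, 8.25 and 8.01 against 6.79, 7.12 and 7.15 (change 1.20 ± 0.17, adjusted p = 0.00039).

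Among the markers of other cell types, those of fibroblasts are given above. None of 10 macrophage, 8 endothelial, 8 neural and glial or 8 epithelial markers was called, also at an unadjusted p with the same fold limit. Their mean signals were 6.53 to 6.70 in KK-TAF3 sh-PIP4K2B arrays and 6.59 to 6.63 in WT-TAF3 shX arrays for macrophages, and 6.46 to 6.62 against 6.60 to 6.73 for endothelium, all below the median gene signal of 7.97. For epithelium they were 7.04 to 7.15 against 7.29 to 7.30, and for the neural and glial list 6.99 to 7.13 against 7.14 to 7.29. The 12 skeletal muscle markers had means of 9.19 to 9.26 and 9.48 to 9.53, with 5 lower (Mymk, Myog, Acta1, Actc1 and Myh3) and 0 higher. These 5 were already counted in the sarcomere, fusion and regulator lists above. Over all genes 0.436% were called lower and 0.823% higher. Myod1, which defines myoblasts, was above the median gene signal on each of the 6 arrays. The epithelial, neural and glial, and fibroblast lists had lower means on every mutant array than on every WT-TAF3 shX array, and their part in the other changes was not tested. Of the epithelial and the neural and glial markers, 5 of 8 and 7 of 8 lay at or below the median signal. Their median changes were -0.22 and -0.20, against -0.109 for all genes of such signal. For 19.9% of all genes every mutant array lay below every WT-TAF3 shX array.

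**Figure D4:**
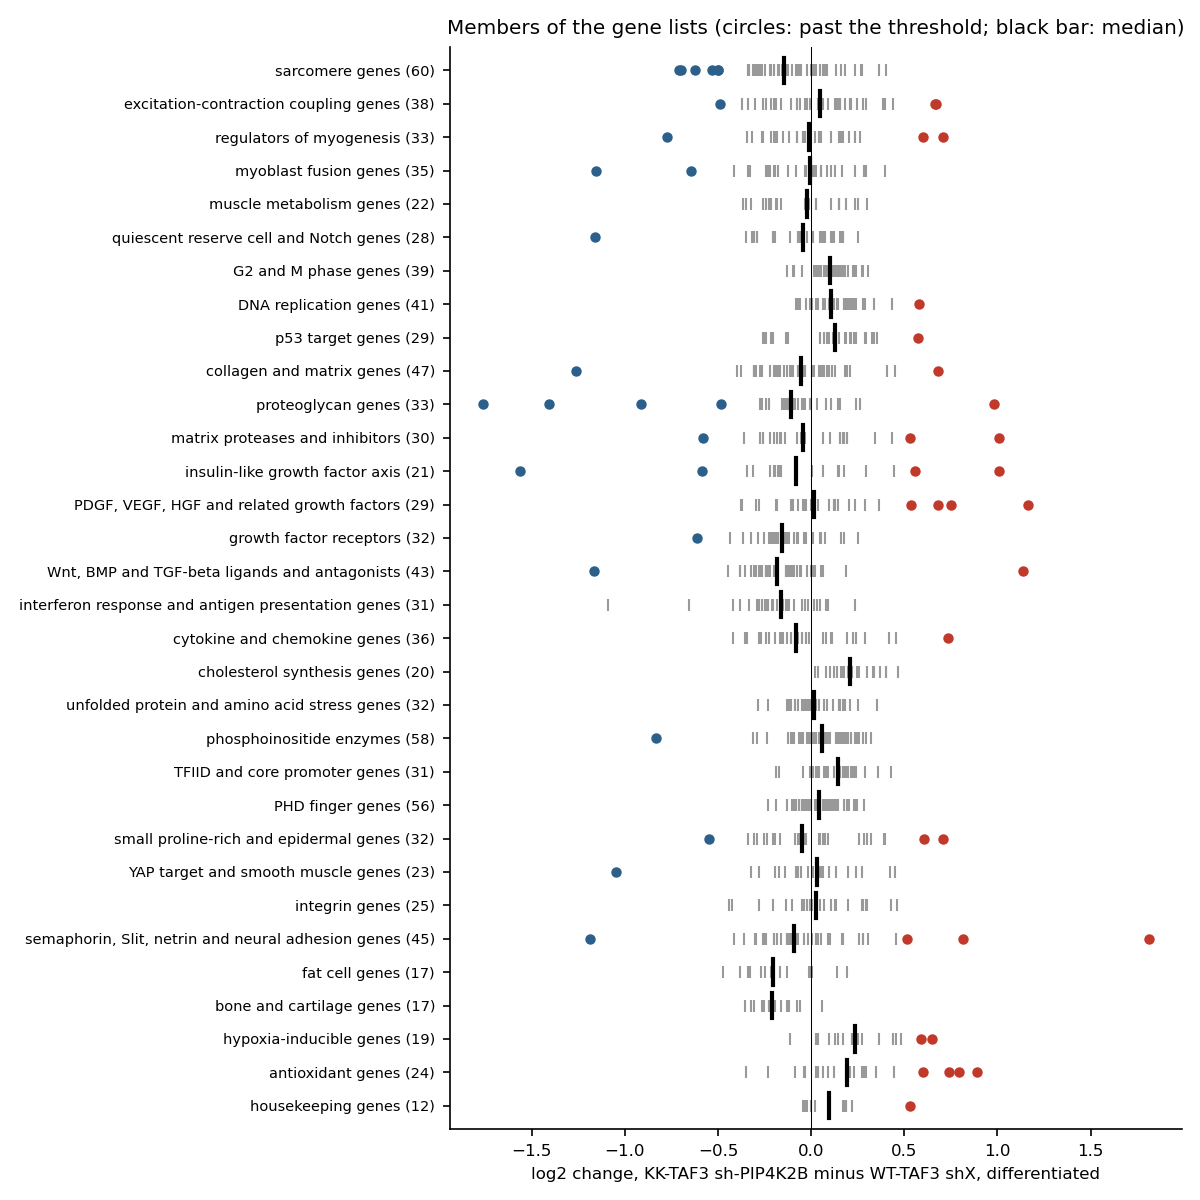
Change (log2, KK-TAF3 sh-PIP4K2B minus WT-TAF3 shX, x axis) of each member of 32 gene lists in differentiated cells, with the number of measured genes after each list's name. Red and blue circles are genes called higher and lower, grey ticks are genes not called, and black bars are medians. Called genes are few in each list. They are lower in the sarcomere and fusion lists and higher in the antioxidant, hypoxia and PDGF lists.

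The same genotypes were compared after etoposide on 6 other arrays, from the same cell lines. There 230 genes were called (1.15%), 158 higher (0.792%) and 72 lower (0.361%). Of the 251 genes called in differentiated cells, 212 (84.5%) had the same sign after etoposide, against 54.5% of all genes. In all 48 genes were called in both treatments, 29 higher and 19 lower, and 0 in opposite directions, which is 19.1% of the calls in differentiated cells and 20.9% of those after etoposide. Across the 251 genes, which are not independent replicates, Pearson's r between the changes was 0.69, and it was 0.27 across all genes. The 251 were picked for their change in differentiated cells. That choice by itself can raise r and the share of equal sign above those of all genes, and its part was not tested.

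Genes called in both included Cd200, Prelp, Igfbp4, Lum, Fbln5, Cd34 and Ccn2. After etoposide Cd200 read 8.54, 8.71 and 8.80 in KK-TAF3 sh-PIP4K2B cells, against 7.72, 7.65 and 7.67 in WT-TAF3 shX cells (change 1.0 ± 0.09). Prelp read 7.84, 7.79 and 7.65 against 8.80, 8.71 and 8.50 (-0.91 ± 0.10), and Igfbp4 7.89, 8.02 and 7.82 against 8.54, 8.46 and 8.52 (-0.60 ± 0.07). The groups stayed apart in these 3 genes, with smaller gaps than in differentiated cells. Mgst2 (1.10 differentiated, 1.11 after etoposide), Hmox1 (0.60 and 0.64), Lipi (-1.19 and -1.07), Pdgfb (0.75 and 0.62) and Pip4k2b (-0.83 and -0.71) changed by nearly equal amounts. Wnt7b (1.14 and 0.71), Pdgfd (1.16 and 0.89) and Stmn2 (1.22 and 0.78) were called in both as well, as were Aspn (-0.92 and -1.29) and Nqo1 (0.80 and 1.18). For none of these 10 genes did the difference between treatments pass its own test, described next.

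A test of the difference between treatments, taken as the change in differentiated cells minus that in etoposide-treated cells, called 143 genes (0.717%), 65 with a positive (0.326%) and 78 with a negative difference (0.391%). They included 50 of the 251 genes called in differentiated cells. Mymk fell in differentiated cells (-1.16), but after etoposide it read 8.02, 7.64 and 7.70 in KK-TAF3 sh-PIP4K2B cells and 7.98, 8.0 and 7.95 in WT-TAF3 shX cells (change -0.18 ± 0.11), so the difference was -0.97 (adjusted p = 0.00341). Myog (-0.62, adjusted p = 0.0281), Actc1 (-0.66, adjusted p = 0.0123) and Mybph (-0.67, adjusted p = 0.0304) also had differences past the threshold, whereas Acta1 (-0.42, adjusted p = 0.203) and Myh3 (-0.50, adjusted p = 0.0693) did not. WT-TAF3 shX cells carried less Mymk after etoposide (8.0 at most) than after differentiation (9.16 at least). Gpr141 had a difference of -1.38 (adjusted p = 0.00678), being lower in the differentiated mutant and at 5.25, 5.69 and 5.22 against 5.45, 5.55 and 5.12 after etoposide.

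Other differences between treatments past the threshold included genes whose changes had opposite signs, although no gene was called in both with opposite signs. Car9 was higher by 0.48 in differentiated cells, where it was not called, and read 7.32, 7.45 and 7.10 in KK-TAF3 sh-PIP4K2B cells, against 8.39, 8.24 and 8.05 in WT-TAF3 shX cells after etoposide (change -0.93 ± 0.12). The difference was 1.41 (adjusted p = 0.00091). Sema3d had 0.82 in differentiated cells and -0.37 ± 0.13 after etoposide, a difference of 1.19 (adjusted p = 0.00341). Trp53i11, a p53-induced gene, had -0.61 and 0.32 (difference -0.93, adjusted p = 0.00091), while Npr3 had changes of the same sign, 0.99 and 0.01 (difference 0.98, adjusted p = 0.000697). The G2 and M phase genes, with 0 of 39 called in differentiated cells, had 29 higher and 0 lower after etoposide (median 0.60), and 13 of them passed the test of the difference with a negative sign. Over all genes 0.792% were called higher after etoposide, and 0.391% passed that test with a negative sign.

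**Figure D5:**
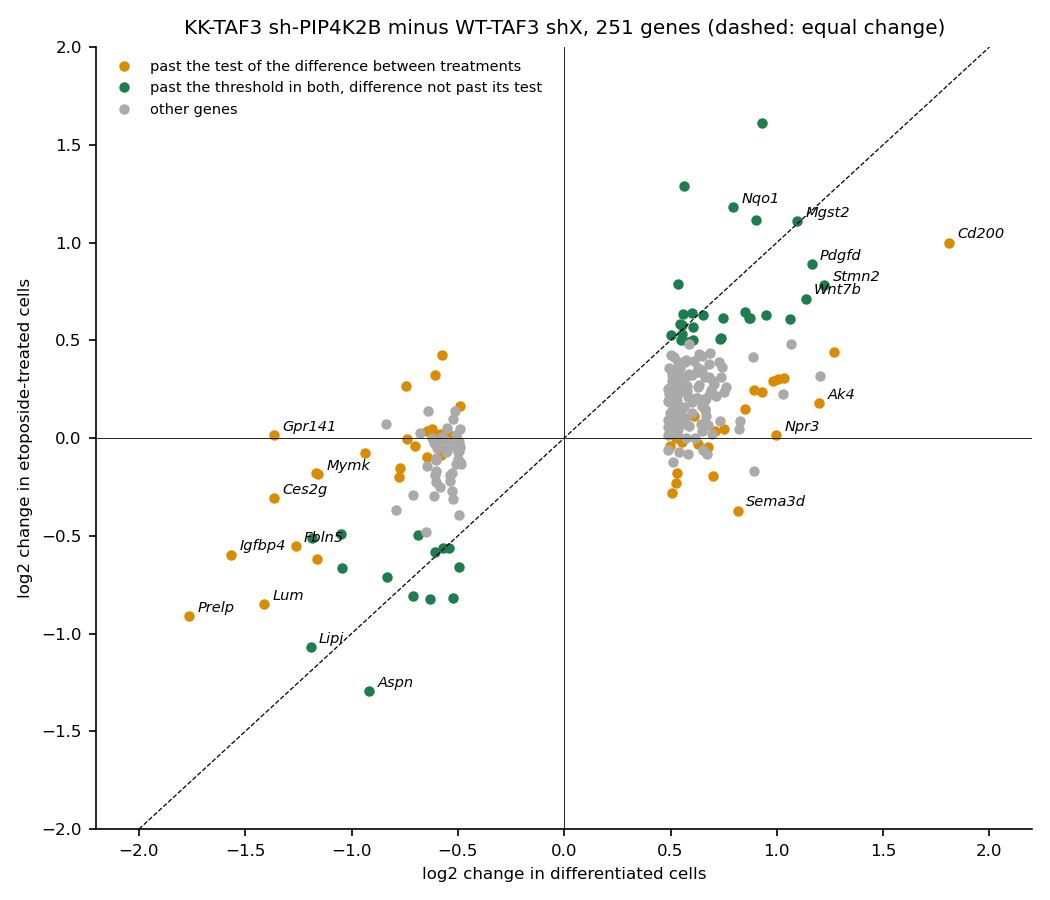
Change (KK-TAF3 sh-PIP4K2B minus WT-TAF3 shX, log2) in etoposide-treated cells (y axis) against that in differentiated cells (x axis) for the 251 genes called in differentiated cells. Orange genes passed the test of the difference between treatments (50 genes), green genes were called in both treatments without passing it, and the dashed line marks equal change. Most points lie in the quadrants of equal sign (212 of 251), and Mymk and Gpr141 lie near 0 on the y axis.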

How the data were processed

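RNA from C2C12 lines was hybridised to 18 Affymetrix mouse gene arrays. The deposited values are log2 signals that the authors made with RMA in Affymetrix Expression Console (version not given in the sources used here), which corrects background, normalizes arrays by quantiles and summarises probes per transcript cluster. They were used as deposited. Of 35556 clusters, 21789 had 1 gene symbol in the platform annotation, 1621 had several and 12146 were unlisted. The sources differ on the chip's generation, so gene names rest on that annotation. The brightest cluster was kept for 999 genes with several, giving 19938 genes. The array labels give 2 days of differentiation and the series description 3.

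One limma 3.58.1 model (R 4.3.3) of 6 group means on 18 arrays gave all changes, with 12 residual and 6.05 prior degrees of freedom, and was tested on simulated data. The threshold was adjusted p under 0.05 and 1.4-fold. The study's methods give those limits without saying whether p was adjusted. After etoposide the deviations of same-numbered arrays correlated at 0.169, 0.100 and 0.593. There KK-TAF3 replicate 1 went better with WT-TAF3 shX replicate 2 (0.466), and KK-TAF3 replicate 2 with WT-TAF3 shX replicate 1 (0.253). Whether the numbers pair the arrays was therefore not settled, and in differentiated cells same-numbered arrays did not deviate together. With 3 arrays per group, array number limits the precision. The members and gene lists were chosen with earlier results of these data known. Genes were named if the study names them, if among the 15 largest rises or falls without overlap (predicted and small RNA genes left out), as up to 6 called members of a list or 2 uncalled ones, or as up to 8 per direction shared or differing between treatments. Sequences came from RefSeq (GRCm38.p6), which held 15614 of the genes. Alternatives were adjustment, fold limit, arrays fitted, prior, array weights, signal filter, all clusters, quantile normalization, centring, the array median as covariate, a replicate block and each array left out. Figures were drawn with matplotlib 3.10.9, and tables were written in Python 3.11.15 with numpy 2.4.6 and pandas 2.3.3.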

Additional observations from a re-analysis of the deposited data

Results flagged for a closer look

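The change in differentiated cells minus that in etoposide-treated cells passed its own test for 143 genes, 13 of them in the G2 and M phase list, all 13 negative. Over all genes 0.391% passed with a negative difference. Named genes with this test are given here by the log2 difference, and none was weighed further. Among muscle genes it was -0.97 for Mymk, -0.67 for Mybph, -0.66 for Actc1, -0.62 for Myog, -0.55 for Elmo1, 0.52 for Chrnd and 0.81 for Trdn. Among matrix and IGF axis genes it was -0.85 for Prelp, -0.71 for Fbln5, -0.56 for Lum, -0.86 for Olfml2a, -0.49 for Adamts12, 0.69 for Has2, 0.71 for Serpinb6b, -0.97 for Igfbp4, 0.70 for Pappa and 0.57 for Igf2bp3. Surface and secreted genes had -1.38 (Gpr141), 1.19 (Sema3d), 0.81 (Cd200), -0.54 (Cd34), -0.98 (Dkk3), 0.98 (Npr3), 0.72 (Ptgfr), 0.83 (Mctp1), 0.67 (Pkp2) and -1.0 (Emb, an immunoglobulin-family adhesion protein). Enzymes and other genes had 1.41 (Car9), 0.82 (Car3), 1.02 (Ak4), 0.64 (Fmo1), -1.06 (Ces2g), 0.50 (Hsd17b7, a cholesterol synthesis enzyme), -1.01 (Etv1), -0.93 (Trp53i11), 0.97 (Dync1i1), 0.89 (Lix1) and 0.69 (Ttc9). With the replicate block, which treats same-numbered arrays as paired, the differences of Emb (adjusted p = 0.0633), Hsd17b7 (0.0566) and Igf2bp3 (0.0518) no longer passed. Whether the arrays are paired in this way was not settled. For Dync1i1, a dynein chain, and Trdn the change in differentiated cells was near 0, and after etoposide both were lower, at -0.88 and -0.75. Etoposide-treated cells were not a control for differentiation, since treatment and state differ together.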

How the results depend on the processing

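Of the 74 genes named by rule and past the threshold in differentiated cells, which leave out Snord87, 24 kept the call in every setting that tested them. Of these, 14 did so in all 19 settings, and 10, at or below the median signal, in all but the signal filter. Of the 74, 0 changed sign, and a fold limit of 2 by itself ended 50 calls. Quantile normalization among the arrays compared ended 13 of the 74, the array median as a covariate 11 and median centring 7. The total of 251 calls (164 higher, 87 lower) became 1727 (981 and 746) with no fold limit, 26 (13 and 13) with a fold limit of 2, 138 (109 and 29) among genes above the median signal, 415 (270 and 145) over every transcript cluster, and 433 (383 and 50) with each array centred on its median, which moved the median of all genes to 0.0879. The array median as a covariate gave 88 higher genes. At an unadjusted p with the same fold limit there were 267 calls.

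Leaving out each array in turn gave 197 to 381 calls, with 125 to 219 higher and 67 to 185 lower. The counts were highest without KK-TAF3 sh-PIP4K2B replicate 3 (381) and without WT-TAF3 shX replicate 3 (375). Single named calls were lost, in most cases with little change of the value, as follows. Without KK-TAF3 replicate 1 these were Casq2 (-0.459), Emb (-0.640), Fmod (-0.433), Robo1 (0.510), Sprr2h (-0.480) and Tfrc (0.530), without replicate 2 Il18 (0.655), Myh3 (-0.481), Myl4 (-0.485), Robo1 (0.509) and Tfrc (0.517), and without replicate 3 Emb (-0.401) and Robo1 (0.527). Without WT-TAF3 shX replicate 1 these were Emb (-0.571), Il18 (0.618), Robo1 (0.514) and Tfrc (0.485), without replicate 2 Emb (-0.647), Fmod (-0.386), Myh3 (-0.480), Robo1 (0.508), Serpinb6b (0.462) and Tfrc (0.537), and without replicate 3 Casq2 (-0.413), Emb (-0.513), Myl4 (-0.444), Robo1 (0.523) and Tnnc1 (-0.466). The 230 calls after etoposide ranged from 197 to 287 (142 to 197 higher, 55 to 115 lower). The 143 differences between treatments ranged from 73 to 151 (27 to 75 positive, 46 to 79 negative). They numbered 374 (161 and 213) at an unadjusted p with the same fold limit, and 83 with median centring, 23 of them negative. The cause was not tested.

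Uncalled changes near 0 took the other sign. Dcn was 0.057 with median centring and between -0.052 and 0.001 with 1 array left out, positive without KK-TAF3 replicate 1. Dync1i1 (0.09) was -0.016 with quantile normalization and -0.053 with the array median as a covariate, Trdn -0.012 and -0.089, and Pip4k2c -0.055 and -0.097, and between -0.022 and 0.025 with 1 array left out, negative without KK-TAF3 replicate 2.

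Arrays share replicate numbers, but the deviations of same-numbered arrays correlated at -0.050, -0.092 and -0.268 in differentiated cells and at 0.169, 0.100 and 0.593 after etoposide, where KK-TAF3 replicate 1 nevertheless deviated most like WT-TAF3 shX replicate 2 (0.466). KK-TAF3 replicate 2 also deviated more like WT-TAF3 shX replicate 1 (0.253) than like the array of its own number (0.100). Among the mutant arrays after etoposide only replicate 3 went best with its own number. The numbers therefore did not settle a pairing after etoposide, and gave none in differentiated cells. With the replicate block there were 252 calls (166 higher, 86 lower), 239 after etoposide and 176 differences. Among named genes it added calls for Ifit1 (adjusted p = 0.032) and Ifit3 (0.0174) in differentiated cells. Of the differences it added those of Bnip3, Cpa6, Musk and Ncam2, and ended those of Emb, Hsd17b7 and Igf2bp3. It changed no other named call in these comparisons.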
